A study of Mus musculus with 12 samples.

Results

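The 918 peaks described here come from reads precipitated with an Argonaute (Ago) antibody from mouse fetal liver cells, and the authors' annotation places them in long noncoding RNA genes. Many of them also held reads precipitated with control IgG. They are the peaks that the authors assigned to the classes lincRNA (exonic) or lincIntron, outside the H19 gene, with no canonical seed match of miR-451a or miR-144-3p. A canonical match is a deposited seed code of 11 or more. They make up 0.863% of the 106382 deposited peaks, and fall into 282 lincRNA and 636 lincIntron peaks in 457 genes. Of the 987 peaks of these classes, 24 lay in H19 and 45 had a code of 11 or more, and both sets were left out. RefSeq lists 264 of the genes as lncRNA and 12 as protein coding, with 31 of the peaks, and 178 gene names matched no RefSeq entry.

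Ago HITS-CLIP crosslinks RNA to Ago in cells, precipitates Ago and sequences the bound fragments. The KO Ago group held 3 libraries from mouse embryos without the miR-144/451 locus, precipitated with an Ago antibody. The WT Ago group held 3 libraries from wild-type embryos, precipitated in the same way. The KO IgG and WT IgG groups held 3 libraries each, from the same genotypes but with control IgG. All mice were C57BL/6J, and each precipitation used 100000000 fetal liver cells. The labels give 3 replicates per genotype and do not say whether each came from a separate liver, nor whether Ago and control IgG were run on the same one, so the p-values rest on differences among libraries that may be partly technical.

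Ago proteins carry microRNAs, which pair through their seed, the bases near the 5′ end, with target RNAs. In the cytoplasm this represses the target. Long noncoding RNAs can also be bound: some are nuclear, such as Malat1 and Xist, and some are known for their own effect on a microRNA. Cyrano carries an extensively complementary site for miR-7 and promotes its degradation. miR-144 and miR-451a are made from 1 precursor transcript and are abundant in red cell precursors, the main cell type of the fetal liver.

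The seeds of the microRNAs behind the deposited codes are printed because the members were chosen by their absence. Capitals mark bases 2 to 8, and the sequences are those of RefSeq (GRCm38.p6).
miR-451a: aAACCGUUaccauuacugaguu
miR-144-3p: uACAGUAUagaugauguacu
miR-144-5p: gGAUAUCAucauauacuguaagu
miR-16-5p: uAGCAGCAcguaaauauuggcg
The 4 seeds differ from each other. miR-16-5p is not encoded at the deleted locus.

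The 4 peaks printed next lie in RefSeq start windows, which hold the sequence at hand for these peaks. They hold few reads and were chosen as examples after their reads were seen. Sequence was also at hand for start peaks of Gm16339, Gm13905 and Gm14321, not printed. The Gm16339 peak held 3, 3 and 2 reads in KO Ago libraries 3, 12 and 13, against 1, 2 and 2 in WT Ago libraries 1, 9 and 10. The Gm14321 peak held 2, 6 and 1, against 0, 2 and 6. In the first printed pair the capitals mark the 6 bases opposite the seed of miR-451a, which match at every seed position from 2 to 6 and mismatch at position 7. The other pair has no match to either microRNA of the rule.
Rab10os chr12:3235584-3235611, + strand: agcgcgaccgatttCCGGTTtccccgcc
Xist chrX:103483184-103483208, - strand: gtttcccgtggatgtGCGGTTcttc
Far2os2 chr6:148047290-148047308, - strand: gaggcctctgccagggcgg
Meg3 chr12:109545227-109545261, + strand: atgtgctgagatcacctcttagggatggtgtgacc
The Rab10os peak held 0 reads in each KO Ago library, against 1, 4 and 4 reads in WT Ago libraries 1, 9 and 10. The Xist peak, at the start of the RNA that silences the inactive X chromosome, held 0 reads in each KO Ago library, against 5, 1 and 1 in the WT Ago libraries. The Far2os2 peak held 4, 2 and 3 reads in KO Ago libraries 3, 12 and 13, against 0, 0 and 2 in WT Ago. Its shallower IgG libraries held more, with 6, 3 and 6 reads in KO IgG libraries 4, 8 and 14 and 5, 4 and 4 in WT IgG libraries 2, 6 and 11. The Meg3 peak, in an imprinted RNA that hosts microRNAs, held 2, 3 and 1 reads in KO Ago and 0 in each WT Ago library.

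Over all peaks there were 198800, 341061 and 147969 reads in KO Ago libraries 3, 12 and 13, and in WT Ago libraries 1, 9 and 10 there were 292010, 452157 and 202876. The IgG libraries were shallower, with 24622 to 42916 reads in KO and 25985 to 42399 in WT. No deposited peak lies over the Mir144 or Mir451a hairpin, so the deleted gene itself was not measured. The 83 peaks with an 8-mer match to miR-451a, code 14, held 43, 58 and 25 reads in the KO Ago libraries, against 428, 606 and 221 in the WT Ago libraries, which follows the genotype labels. Of 18 erythroid marker names, 11 matched a peak, and those of the adult globins, Hbb-bh1, Epb42 and Ahsp did not. Whether these unmatched genes had peaks under another name was not tested. Reads in the 11 matched markers took 1.10% to 1.32% of KO Ago and 1.49% to 1.79% of WT Ago peak reads, without the unmatched ones. All 12 hepatocyte markers had a peak, with 1.19% to 2.34% in KO Ago and 0.635% to 1.90% in WT Ago. The part of these shifts in the results below was not tested.

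The members were shallow peaks. They held a median of 9 reads over the 6 Ago libraries, from 2 to 151, against a median of 10 over all peaks, and 69 of them held at least 30. Reads were concentrated in few genes: 362 genes had 1 peak, 8 had 10 or more, and the 3 leading genes, Cyrano, Malat1 and Gm27177, held 40.5% of the 12920 Ago reads. Cyrano, deposited as 1700020I14Rik and listed by RefSeq as Oip5os1, had 71 peaks with 2285 Ago and 149 IgG reads. Malat1, an abundant RNA of nuclear speckles, had 73 peaks with 1713 Ago and 1417 IgG reads. Gm27177 had 109 peaks with 1235 Ago and 272 IgG reads.

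Reads in long noncoding RNA took a smaller share of the Ago libraries than of the IgG libraries. The 918 peaks took 0.957%, 0.757% and 0.942% of the peak reads in KO Ago libraries 3, 12 and 13, against 1.80%, 2.57% and 3.04% in KO IgG libraries 4, 8 and 14. They took 0.789%, 0.669% and 0.846% in WT Ago libraries 1, 9 and 10, against 1.63%, 1.89% and 2.60% in WT IgG libraries 2, 6 and 11. In both genotypes every Ago library was below every IgG library. Between genotypes the Ago libraries overlapped, at 0.885% ± 0.111 in KO and 0.768% ± 0.0904 in WT (SD, n = 3 each). The lincRNA peaks alone took 0.345%, 0.322% and 0.390% in KO Ago libraries, against 0.242%, 0.280% and 0.299% in WT Ago libraries, and here the groups did not overlap. Since the tissue was taken in bulk, fewer cells of a type and less RNA per cell cannot be told apart.

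**Figure D1:**
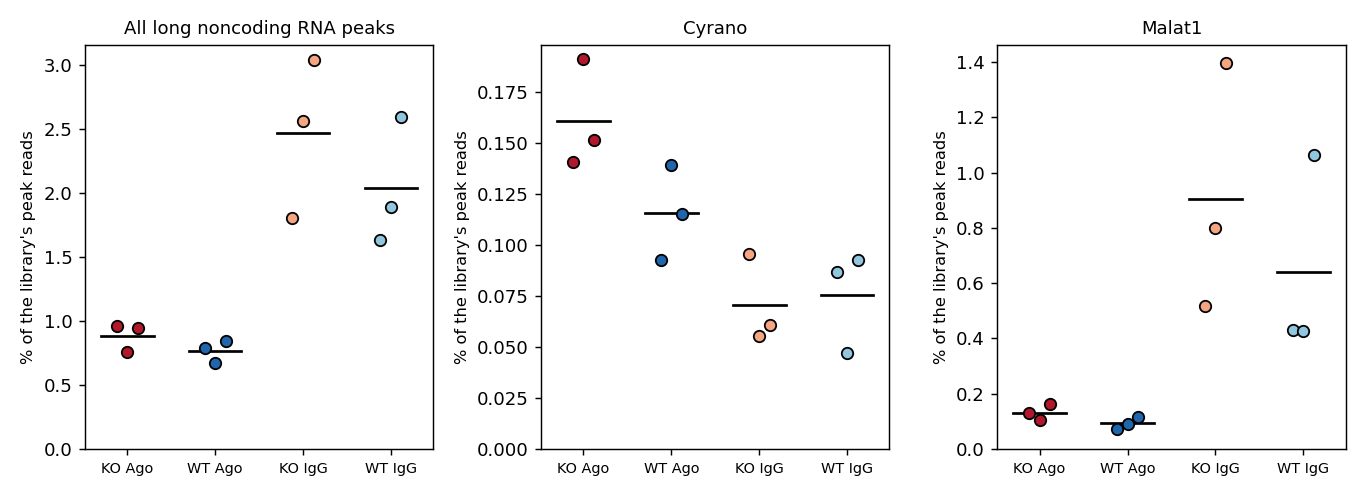
Share of each library's peak reads (%) in all 918 long noncoding RNA peaks, in Cyrano and in Malat1, by group. Points are libraries and lines are group means; within each genotype the Ago points lie below the IgG points for all peaks and for Malat1, and above them for Cyrano.

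The gap between Ago and IgG differed by gene. Reads were summed per gene and given as RPM, reads per 1000000 reads in all peaks of the library. Of the 77 member genes with at least 30 reads over all libraries, 34 had every KO Ago library below every KO IgG library, where 5.69% of all 7036 genes of that depth did. In WT, 34 of the 77 did, where 6.75% of all genes did. The opposite order, every Ago library above every IgG library, held for 8 member genes in KO, where 43.5% of all genes did, and for 7 in WT, where 39.6% did. The floor of 30 counts Ago and IgG reads together, so a gene could reach it only through its IgG reads. For example, 8030442B05Rik held 18 Ago and 51 IgG reads. These counts are therefore set in part by the floor and are given as a description. Cyrano and Redrum, a long noncoding RNA of red cell precursors, were on the Ago side in both genotypes. Malat1, Meg3, Gm15564, 9330185C12Rik, 4930593A02Rik and Gm26561 were on the IgG side in both.

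Cyrano averaged 1609 ± 266 RPM in KO Ago, against 706 ± 218 in KO IgG (SD, n = 3 each). It averaged 1154 ± 232 in WT Ago, against 755 ± 247 in WT IgG. Malat1 averaged 1316 ± 299 in KO Ago, against 9047 ± 4492 in KO IgG. It averaged 936 ± 213 in WT Ago, against 6394 ± 3661 in WT IgG. Malat1 was thus the larger source of reads in every IgG library, and Cyrano on average in the Ago libraries.

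Redrum held 13, 22 and 11 reads in KO Ago libraries, against 0, 0 and 1 in KO IgG. It held 12, 22 and 6 in WT Ago, against 0 in each WT IgG library. Ttc39aos1, also called lincRNA-EPS, is induced in erythroid differentiation and protects against apoptosis in mouse red cell precursors. It held 9, 10 and 8 reads in KO Ago, against 1, 0 and 0 in KO IgG, and 5, 9 and 3 in WT Ago, against 1, 0 and 0 in WT IgG. Every Ago library was above every IgG library in RPM for Redrum in both genotypes and for Ttc39aos1 in KO, at read numbers that give wide counting error.

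**Figure D2:**
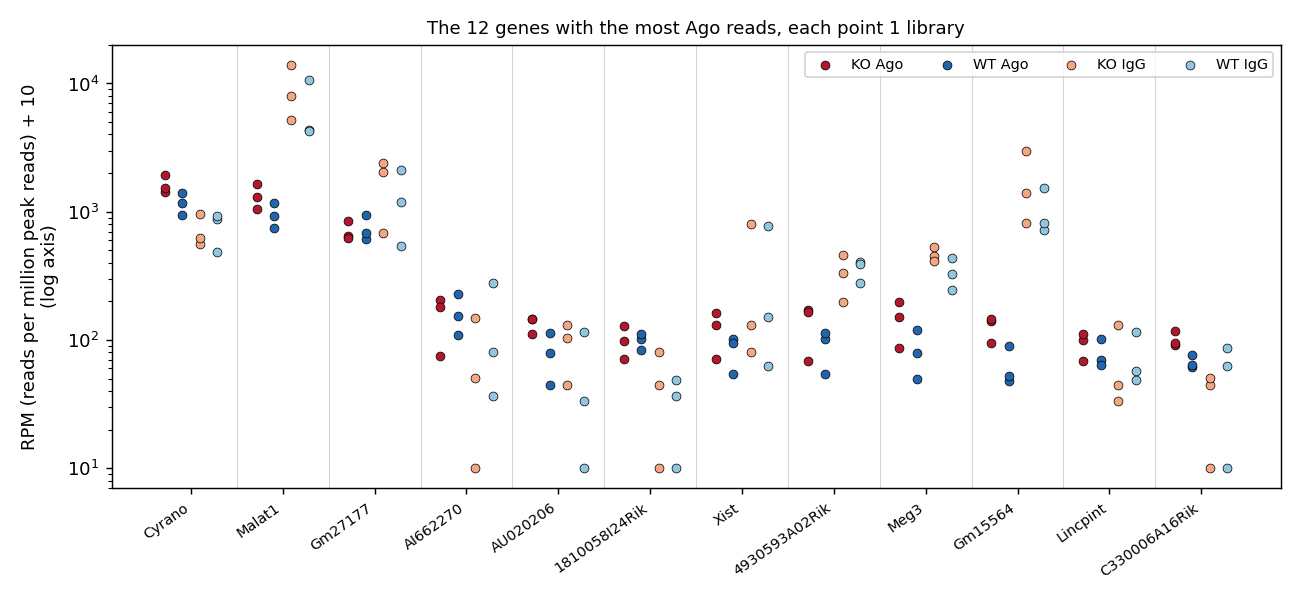
RPM plus 10 on a log axis for the 12 genes with the most Ago reads, with 1 point per library in the order KO Ago, WT Ago, KO IgG, WT IgG. Malat1, Meg3, 4930593A02Rik and Gm15564 lie higher in IgG, and Cyrano lies higher in Ago.

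The test of these sums fitted all genes with edgeR's quasi-likelihood test and Benjamini-Hochberg adjustment. Its filter asks for reads in the shallow IgG libraries, so it kept member genes that are high in IgG and left out genes seen mainly with Ago, such as Redrum. The balance of lower and higher members among those tested is therefore set in part by the filter and is given as a description. In KO, 13 of 16 tested member genes were lower in Ago than in IgG, where 19.7% of all 2235 tested sums were lower. None of the 16 was higher, where 10.1% of all were. In WT, 16 of 18 were lower, where 21.1% of 2822 were, and none was higher, where 9.25% were. At an unadjusted p under 0.05, 1 member gene was higher in KO and 0 in WT, and DESeq2 called 1 higher in KO and 0 in WT. With no filter, 15 of 419 member genes were lower and 12 higher in KO, where 728 and 4141 of all 31640 sums were. In WT, 7 of 457 were lower and 7 higher, where 303 and 3097 of all 34224 were. The median log2 change of the members changed sign with the filter. It was -3.07 in KO over the 16 genes tested and 1.16 with no filter, against 0.41 and 1.97 over all sums. In WT it was -3.40 over the 18 genes and 1.39 with no filter, against 0.35 and 2.23 over all sums. Without any 1 WT Ago library 9 members were tested, and 7 to 8 were lower in WT.

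Malat1 was lower in Ago than in IgG by log2 changes of -3.12 ± 0.44 in KO (SE, adjusted p = 1.5e-06) and -3.11 ± 0.46 in WT (adjusted p = 8.7e-08, edgeR). Gm15564 changed by -4.29 ± 0.43 in KO (adjusted p = 1.0e-08) and -4.76 ± 0.39 in WT (adjusted p = 7.6e-15). Its 3 peaks held 26, 29 and 20 reads in KO Ago, against 60, 85 and 20 in the much shallower KO IgG libraries. They held 11, 19 and 16 reads in WT Ago, against 27, 65 and 21 in WT IgG. For Xist, 12, 52 and 18 reads in KO Ago stood against 3, 23 and 3 in KO IgG, a change of -1.82 ± 0.58 (adjusted p = 0.020) that turned to 0.19 without KO IgG library 8. The tested genes that were not lower were Cyrano and AI662270 in both genotypes and AU020206 in KO. Cyrano stood at 0.80 ± 0.34 in KO (adjusted p = 0.078) and 0.26 ± 0.34 in WT (adjusted p = 0.60), neither past the threshold.

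Peak by peak, the same fit tested 23 members in KO and 23 in WT, out of 645 and 894 peaks. The tested peaks held 4.43% to 6.62% of the reads of a KO Ago library and 18.7% to 26.2% of a KO IgG library, so the TMM scale is centred on peaks rich in IgG reads. As with the sums, a member with few Ago reads could pass the filter only through its IgG reads, and the counts are a description. In KO, 8 members were lower in Ago, where 23.3% of all tested peaks were, and 2 were higher, where 40% were. In WT, 12 were lower, where 37.9% were, and 0 were higher, where 35.9% were. By DESeq2 the counts were 1 lower and 2 higher in KO and 6 lower and 0 higher in WT, where 0 were higher at an unadjusted p under 0.05. With library size over all peaks in place of TMM, 22 of 23 were lower in KO and 23 of 23 in WT, as were 427 of all 645 peaks in KO and 552 of all 894 in WT. With no filter, 3 members of 850 were lower and 13 higher in KO, where 129 and 1865 of all 100439 peaks were. In WT, 10 of 913 were lower and 14 higher, where 343 and 4303 of all 105995 were. Without any 1 Ago library of a genotype, fewer peaks were tested, 15 members in KO and 7 in WT, and 0 were lower in KO and 0 to 1 in WT.

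The higher peaks in KO were Cyrano chr2:119599805-119599825 and the 1 peak of 4930593A02Rik, chr3:58751774-58751795. The Cyrano peak held 18, 49 and 16 reads in KO Ago, against 3, 2 and 4 in KO IgG (log2 change 3.05 ± 0.61, adjusted p = 0.0021, edgeR). The 4930593A02Rik peak held 32, 20 and 23 reads in KO Ago, against 8, 13 and 8 in KO IgG (1.28 ± 0.44, adjusted p = 0.027). Its level was lower in Ago, at 125 ± 57.5 RPM in KO Ago against 320 ± 132 in KO IgG. With library size over all peaks in place of TMM its change turned to -1.35. The 5 genes with the smallest p in WT were 8030442B05Rik, 9330185C12Rik, Gm15564, Far2os2 and Gm26561, all lower in Ago, with log2 changes from -3.26 to -1.89. All 5 peaks passed the filter through their IgG reads, so their direction was fixed by the filter and is a description. Among them is the Far2os2 peak whose sequence was given above, at -3.26. The 8030442B05Rik peak likewise held 3, 3 and 4 reads in WT Ago, against 11, 7 and 8 in WT IgG.

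Between genotypes, 18 members were deep enough to be tested in the Ago libraries, out of 2425 peaks. Of these, 2 were lower in KO, where 17.6% of all tested peaks were lower, and 0 were higher, where 1.4% were. At an unadjusted p under 0.05, 3 members were higher, and DESeq2 called 0 higher. The median log2 change of the 18 was 0.35, against 0.09 over all tested peaks, and 14 of the 18 were above 0. In the IgG libraries 10 members were tested of 190 peaks, and 0 were called lower or higher in KO, where 0% of all were. None of the 10 had an unadjusted p under 0.05, and DESeq2 called 0.

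Both lower peaks lay in Cyrano. The first, in an exon at chr2:119600534-119600560, held 10, 6 and 1 reads in KO Ago libraries 3, 12 and 13, against 24, 46 and 12 in WT Ago libraries 1, 9 and 10. No IgG library held a read there. It averaged 24.9 ± 22.7 RPM in KO Ago and 81.0 ± 21.3 in WT Ago (SD, n = 3 each), a log2 change of -1.94 ± 0.48 (SE, adjusted p = 0.0078, edgeR). This peak has no deposited match to any of the 6 microRNAs scored.

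The second, a peak of the authors' class lincIntron at chr2:119601198-119601285, held 2, 12 and 5 reads in KO Ago, against 17, 30 and 18 in WT Ago. Control IgG held 0 reads there in each KO library, against 0, 2 and 3 in WT libraries 2, 6 and 11. It averaged 26.3 ± 14.1 RPM in KO Ago and 71.1 ± 15.8 in WT Ago, a change of -1.55 ± 0.43 (adjusted p = 0.016). Its adjusted p was 0.062 without KO Ago library 3. It had a single-mismatch match to miR-144-3p (code 6) and a 6-mer match to miR-21a-5p (code 11). In both peaks every KO library lay below every WT library in RPM.

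The other tested peaks of Cyrano did not go this way. All 8 had a log2 change above 0, from 0.01 to 1.00, and none passed the threshold. The peak at chr2:119602133-119602172 held 11, 26 and 11 reads in KO Ago, against 6, 14 and 8 in WT Ago (1.00 ± 0.37, adjusted p = 0.081). The peak at chr2:119600026-119600051 held 12, 29 and 11 reads in KO Ago, against 10, 18 and 6 in WT Ago (0.85 ± 0.36, adjusted p = 0.13). With library size over all peaks both passed, at changes of 1.21 and 1.06. Over the 37 Cyrano peaks with at least 20 Ago reads, 30 had a higher mean RPM in KO than in WT. The share over all peaks of that depth was not counted. These peaks come from 1 RNA in the same libraries, so they are not separate observations.

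**Figure D3:**
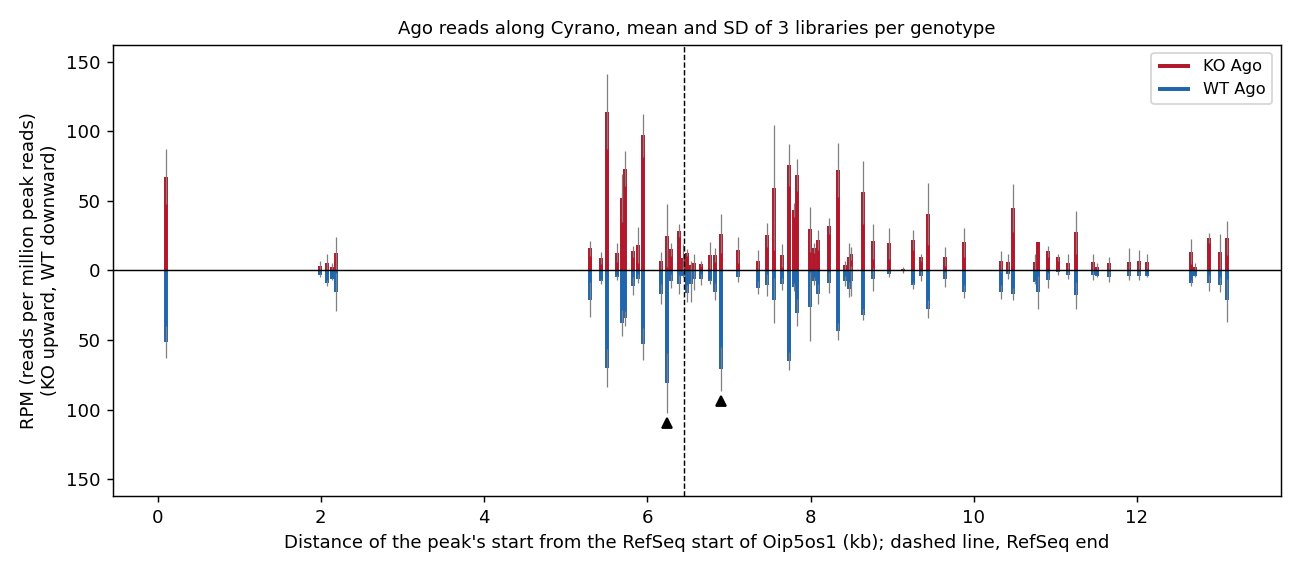
Ago reads (RPM) along Cyrano, by the distance of each of the 71 peaks from the RefSeq start (kb), with KO upward and WT downward (mean, bars SD, n = 3 each). Triangles mark the 2 peaks that were lower in KO; the dashed line is the RefSeq end.

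The reads of Cyrano ran past its end in RefSeq. RefSeq places Oip5os1 at chr2:119594296-119600746, on the + strand. Of its 71 peaks, 52 began beyond that base, with 62.8% of its Ago reads, and the last ended 6698 nt downstream. No RefSeq gene overlaps that stretch, and the next, Oip5, begins 2088 nt beyond the last peak. The lincIntron peak that was lower in KO is among the peaks past the RefSeq end, and the exonic one is within the RefSeq gene. The class lincIntron is from the authors' annotation, since the RefSeq gene ends before that peak. A further 3 Cyrano peaks had a code of 11 or more and were left out, with 19 KO and 49 WT Ago reads.

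**Figure D4:**
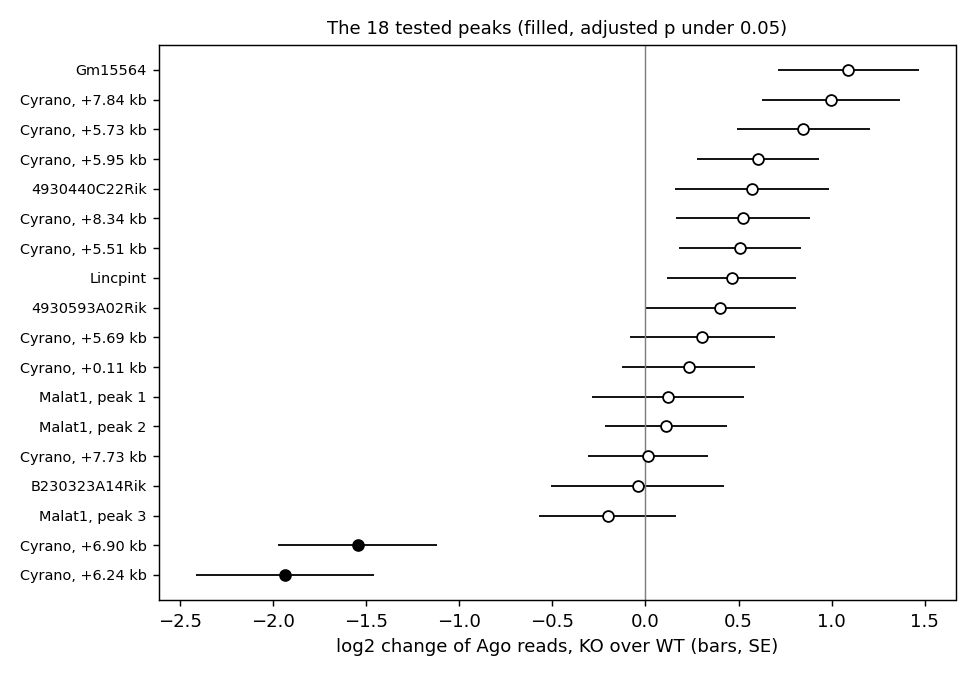
Log2 change of Ago reads, KO over WT, for the 18 tested long noncoding RNA peaks (points, bars SE); Cyrano peaks carry their distance from the RefSeq start and Malat1 peaks are numbered by change. The 2 filled points, -1.94 and -1.55, are the peaks lower in KO.

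Outside Cyrano no tested peak passed. The nearest was Gm15564 chr16:35981713-35981751, with 21, 24 and 19 reads in KO Ago, against 7, 16 and 13 in WT Ago (1.09 ± 0.38, adjusted p = 0.060, edgeR). Of the 18 peaks it was the deepest in IgG, with 51, 74 and 15 reads in KO IgG and 23, 58 and 16 in WT IgG. The 4930440C22Rik peak held 15, 11 and 10 reads in KO Ago, against 12, 10 and 7 in WT Ago (0.57 ± 0.41, adjusted p = 0.44). The Lincpint peak, in an RNA induced by p53, held 11, 16 and 10 reads in KO Ago, against 11, 14 and 7 in WT Ago (0.46 ± 0.35, adjusted p = 0.45). Its counts equal those of a peak in Psma3 in all 12 libraries, so its reads cannot be placed. The 3 tested Malat1 peaks changed by -0.20 to 0.12, and B230323A14Rik by -0.04, with adjusted p from 0.78 to 0.97.

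Summed per gene, 19 member genes were tested among 4823 sums. Of these, 1 was higher in KO, where 0.56% of all sums were, and 0 were lower, where 5.33% were. At an unadjusted p under 0.05, 4 were higher and 0 lower, and DESeq2 called 0 in either direction. The median log2 change of the 19 was 0.44, against 0.03 over all sums. The higher one was Inafm2, with 16, 34 and 11 reads in KO Ago, against 10, 17 and 5 in WT Ago (1.31 ± 0.34, adjusted p = 0.034, edgeR). RefSeq lists Inafm2 as protein coding, its call rested on 3 peaks, and DESeq2 gave an adjusted p of 0.15. With any 1 of the 6 Ago libraries left out it no longer passed, with adjusted p from 0.056 to 0.14.

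Cyrano as a whole changed by 0.42 ± 0.18 (adjusted p = 0.19), Malat1 by 0.44 ± 0.22 (0.27) and Meg3 by 0.87 ± 0.41 (0.25). AU020206 changed by 0.75 ± 0.32 (adjusted p = 0.20), and Redrum by 0.64 ± 0.35 (0.32). AI662270, with 13, 66 and 25 reads in KO Ago against 29, 98 and 29 in WT Ago, changed by -0.17 ± 0.33 (0.81). Gm15564 changed by 1.12 ± 0.35 (adjusted p = 0.078). None of these passed after adjustment over all sums, while Cyrano, AU020206 and Gm15564 had an unadjusted p under 0.05. In RPM every KO Ago library was above every WT Ago library for some member genes and below every one for others. Genes with KO above were Cyrano, at 1403 to 1909 in KO against 925 to 1389 in WT, and Redrum, at 64.5 to 74.3 against 29.6 to 48.7. Gm15564 had the same order, at 85.0 to 135 in KO against 37.7 to 78.9 in WT. The opposite order held for Gm26542, at 11.7 to 27.0 in KO against 33.2 to 61.6 in WT, and B230354K17Rik, at 0 to 11.7 against 19.7 to 33.2. How many member genes, or all genes, had either order was not counted, so these genes are examples only.

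The other lists of known long noncoding RNAs were thinly covered. List sizes count names, and some RNAs stand under more than 1 name, such as Cyrano among those known to bind microRNAs. Of 11 names on the list of abundant nuclear RNAs, 6 had a member peak: Malat1, Neat1, Xist, Kcnq1ot1, Airn and Pvt1, with 980 KO and 996 WT Ago reads in all. Only Malat1 among these had peaks deep enough to test, 0 of 3 called. Neat1, the scaffold of paraspeckles, held 4, 12 and 7 reads in KO Ago, against 7, 22 and 8 in WT Ago. Of 14 microRNA host transcripts, 2 had a member peak, Mir142hg and Meg3. Of 22 names of small nucleolar RNA hosts 1 did, of 9 names of imprinted RNAs 4 did, and of 6 names of RNAs known to bind microRNAs 2 did. Of 5 erythroid RNAs 1 did under its listed name, Ttc39aos1, since the lists were matched to the deposited gene names. Lockd, also on the erythroid list, is deposited as 1190002F15Rik and had 4 member peaks. These held 3, 5 and 0 reads in KO Ago, against 6, 12 and 7 in WT Ago, and 0 IgG reads.

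The rule left in peaks with weaker matches to the deleted microRNAs, in which reads were lower in KO for some codes and higher for others. All 316 members with any match to the 3 microRNAs of the locus averaged 2843 ± 353 RPM in KO Ago and 2845 ± 302 in WT Ago. The 17 members with a single mismatch to miR-451a at seed position 7 took 95.6, 76.2 and 81.1 RPM in KO Ago libraries, against 171, 199 and 168 in WT Ago. Over all 1324 peaks with that code the sums were 7204 to 7386 in KO and 19613 to 23718 in WT. The Rab10os and Xist start peaks printed above have this code and were picked after their reads were seen. The 21 members with a mismatch to miR-144-3p at position 2 took 85.5, 76.2 and 74.3 RPM in KO Ago, against 377, 188 and 261 in WT Ago. Of these, 6 peaks with 0 KO Ago reads, RP24-543J12.1 among them, held 139 of the 248 WT Ago reads. The other 15 held 54 KO and 109 WT Ago reads. Over all 2906 peaks with that code the sums were 23505 to 25775 in KO and 27707 to 32776 in WT, a ratio of 0.837. In both codes every KO library lay below every WT library. The codes with more RPM in KO on average were mismatches to miR-144-3p at positions 3, 5 and 6, with KO over WT ratios of 1.13, 1.39 and 1.28, its offset 6-mer, at 1.85, and mismatches to miR-451a at positions 4 and 6, at 1.13 and 1.10. For each of these 6 codes the KO and WT libraries overlapped. Over all peaks with these codes the ratios were 1.02, 1.10, 0.986, 0.898, 0.809 and 0.735, in the same order. The 3 members with a mismatch to miR-451a at position 2 held 8 KO and 26 WT Ago reads, a ratio of 0.394. There too every KO library lay below every WT library, and over all peaks with that code the ratio was 0.756. The 602 members with no match to the 3 microRNAs of the locus took 6439, 5119 and 6468 RPM in KO Ago, against 4764, 4164 and 5570 in WT Ago, and overlapped. RPM values are shares of a library, so these sums depend on one another.

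**Figure D5:**
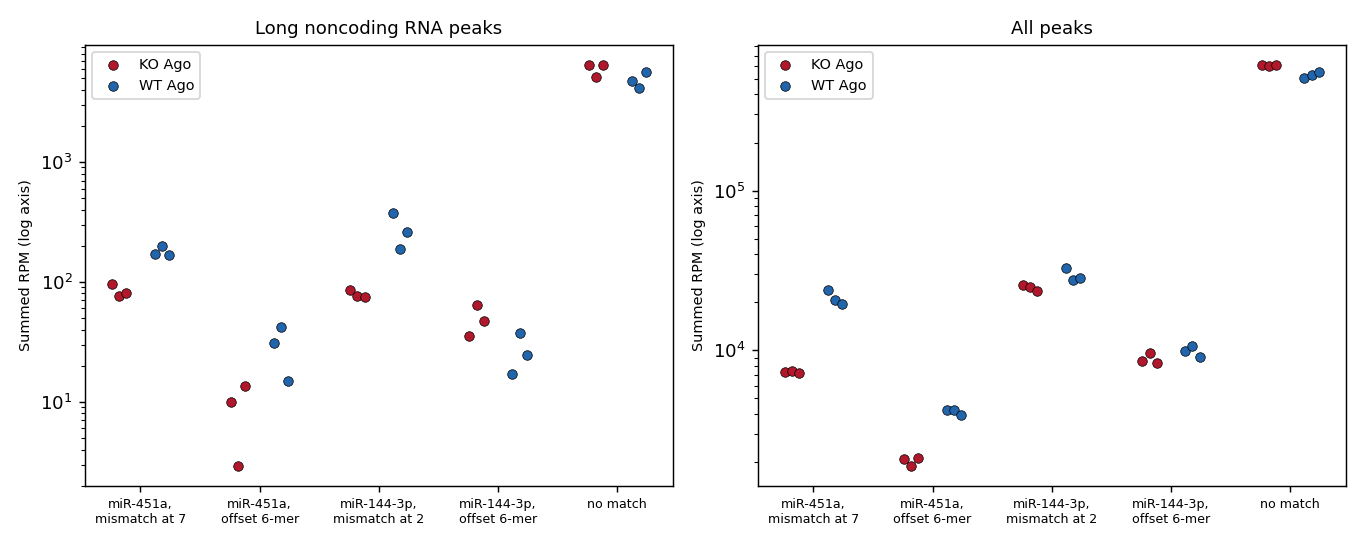
Summed RPM by deposited seed code, on a log axis, for long noncoding RNA peaks (left) and all peaks (right), KO Ago left of WT Ago, 1 point per library. KO points lie below WT points for the miR-451a mismatch at 7 and the miR-144-3p mismatch at 2 in both panels.

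At the threshold of the rule, the 5 members with an offset 6-mer of miR-451a (code 8) held 5 KO and 31 WT Ago reads. The 6 peaks just outside, with a 6-mer (code 11), held 5 and 109. For miR-144-3p the 6 members with code 8 held 36 KO and 27 WT reads, and the 20 peaks with code 11 just outside held 166 and 352. For microRNAs encoded elsewhere, 21 members had a 7-mer or 8-mer match to miR-16-5p, 2.29% of members against 4.04% of all peaks. They took 182 to 211 RPM in KO Ago libraries and 153 to 182 in WT Ago libraries, so the groups overlapped. The deepest of them, in AU020206, C330006A16Rik and Xist, had a 7-mer-m8 match.

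Peaks without a read in 1 genotype were more common in KO, whose Ago libraries were shallower in sum. Of the members, 76 held 0 reads over the 3 KO Ago libraries, which is 8.28%, where 6.41% of all peaks did. Only 7 held 0 over the WT Ago libraries, 0.763%, where 0.447% of all did. Of the 76, 66 were of class lincIntron. Of the 918 members, 17 held 0 KO and at least 10 WT Ago reads, as did 1881 of all 106382 peaks, a similar share. The deepest was RP24-543J12.1 chr5:59977669-59977689, with 0 reads in each KO Ago library, against 23, 17 and 15 in WT Ago. Taking 3 reads over the KO group as the floor it was at least 13.3-fold lower in KO. The same peak held 0 reads in each KO IgG library, against 3, 7 and 1 in WT IgG, so the contrast between genotypes was seen with both antibodies. The WT IgG libraries held reads in 8 of the 17 peaks, 35 in all, and the KO IgG libraries in 2, with 3 reads. The low-count filter kept these peaks out of the main test.

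Some members share their reads with a copy. Of the 571 members with at least 10 reads, 93 had the same counts in all 12 libraries and the same width as another peak, 16.3% against 7.24% of all such peaks. For Gm27177, 70 of 71 such peaks matched a peak of Gm16867 at a distance of 218250 to 218275 nt on chromosome 14. A pair of Meg3 peaks matched Gm27000 peaks. Values of Gm27177 therefore cannot be assigned to 1 locus.

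The authors' deposited table of differential peaks lists 33 of the members among 6651 peaks. At the authors' false discovery rate of 0.05, 14 were lower in KO, where 35.7% of all were, and 2 were higher, where 1.29% were. Their median log2 change in the authors' deposited table was -1.26, against -0.65 over all listed peaks. Of the 14 lower members, 12 held under 30 Ago reads, and 10 had no match to miR-451a or miR-144-3p. Over all members 10.3% had a match to the first and 22.0% to the second. The exonic Cyrano peak was among the 14, at -2.58. In the authors' deposited table the higher peaks were C330006A16Rik chr2:26138156-26138186, at 2.92, and a Gm27177 peak with a copy, at 1.75. The C330006A16Rik peak held 3, 6 and 3 reads in KO Ago and 0 in each WT Ago library.

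The authors' deposited IgG ratio was under 0.2 for 49.0% of the members, against 71.6% of all peaks, with medians of 0.216 and 0.0438.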

How the data were processed

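Ago and IgG HITS-CLIP libraries of KO and WT fetal liver were analysed from the deposited peak table (mm10). The tools cutadapt, STAR, bedtools and limma come from the submitters' processing notes. Versions, and what each did, were not given in the sources used here. Peak height is given over all Ago libraries, per the deposited column description. The deposited counts are raw reads overlapping a peak by at least 16 bases. The deposited signal (peak coverage) columns were not used beyond the authors' ratio of summed IgG over summed Ago peak heights. The authors' seed code is a score: 2 to 7 for a single mismatch at that seed position, 8 for an offset 6-mer, 11 for a 6-mer, 12 for a 7-mer-A1, 13 for a 7-mer-m8 and 14 for an 8-mer. The log2 changes and p-values of the authors' deposited table of differential peaks are from voom and limma.

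Peaks and sums per gene were fitted over the whole table with edgeR 4.0.16 (R 4.3.3): TMM, filterByExpr (minimum count 10, total 15), quasi-likelihood test, Benjamini-Hochberg threshold 0.05, using the 6 libraries of each comparison. Standard errors come from the F statistic. DESeq2, library size alone, library size over all peaks, no filter, the peaks of the authors' table and leaving out each library were alternatives. The sums for Ago against IgG and library size over all peaks were added after seeing the data. Fits were tested on simulated data. RPM values are reads per 1000000 reads in all peaks of a library. Intervals and floors (3 reads over the group) cover counting error only. Named are called peaks, for each direction the 5 genes of smallest p, the 12 genes with the most Ago reads, genes of the lists with a tested peak, tested peaks with a code of 12 or more for miR-16-5p, miR-122-5p or miR-21a-5p (none), and the 5 genes with the smallest p for Ago against IgG in WT. Redrum, Inafm2, Rab10os, RP24-543J12.1, Gm26542, B230354K17Rik and the start peaks were named after their values were seen. The members and lists were chosen with earlier results of these data known, so no p is given for reads summed over all members or over a code. Of the 457 gene names, 268 matched a RefSeq symbol and 11 a synonym. No genome was used, so sequence came from RefSeq start windows. There, all 57 codes of 11 or more and all 151 single-mismatch codes were found within 30 nt of the peak.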

Additional observations from a re-analysis of the deposited data

How the results depend on the processing

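The 2 lower Cyrano peaks were both called under DESeq2, library size alone, no filter and library size over all peaks. With no filter 16 of 918 members were lower, as were 2704 of all 106381 peaks, and with only peaks that the authors tested, 1 of 3 members was, as were 290 of all 1236. The count of higher members in KO was 2 with library size alone, 2 with no filter and 3 with library size over all peaks. Leaving out 1 library at a time gave 2 to 3 lower and 0 to 2 higher. For sums per gene, no filter gave 1 lower and 0 higher and DESeq2 0 higher, and leaving out libraries gave 0 to 1 of each. Inafm2 passed in none of the fits that left out a library. In IgG libraries the count stayed at 0 in every alternative run.

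For Ago against IgG, higher members in WT were 14 with no filter and 0 to 5 on leaving out libraries. Higher members in KO were 1 with library size alone, 13 with no filter, 0 with library size over all peaks and 1 to 8 on leaving out libraries. Lower members in WT were 6 by DESeq2, 19 with library size alone, 23 with library size over all peaks and 0 to 23 on leaving out libraries. Lower members in KO were 1, 17 and 22 in the same order, 3 with no filter and 0 to 24. Over all tested peaks the median log2 change moved from -0.14 with TMM to -2.38 with library size over all peaks in WT, and from -0.17 to -2.86 in KO. Lower sums per gene were 7 in WT with no filter, 7 to 28 in WT and 7 to 22 in KO on leaving out libraries. Higher sums were 7 in WT and 12 in KO with no filter, and in KO 1 with DESeq2, 1 with either library size and 0 to 1 on leaving out libraries. The gap in shares between Ago and IgG was -1.27 percentage points in WT and -1.58 in KO, and -0.727 in WT and -0.811 in KO without Malat1, and -0.676 in WT with lincRNA peaks alone. On leaving out libraries it was -1.48 to -0.99 in WT and -1.92 to -1.30 in KO. The share in KO Ago minus that in WT Ago was 0.0679 to 0.182 percentage points on leaving out libraries. Leaving out 1 library changes how many features pass the filter. Otherwise the cause was not tested.

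Some changes near 0 turned sign. For KO against WT peaks these were B230323A14Rik (0.13 with library size alone, 0.18 over all peaks, -0.424 to 0.416 on leaving out libraries), Cyrano 119602027 (-0.0687 with no filter, -0.0939 to 0.230) and Malat1 5799725 (0.00953 over all peaks, -0.477 to 0.00257). On leaving out libraries Cyrano 119599982 ran from -0.0115 to 0.594, Malat1 5797459 from -0.290 to 0.450 and Malat1 5797794 from -0.183 to 0.265. Sums turned for 1810058I24Rik (0.00552 over all peaks, -0.321 to 0.122), Lincpint (-0.0481 with no filter, -0.0468 to 0.472), AI662270 (-0.472 to 0.158) and Gm27177 (-0.234 to 0.0172). For Ago against IgG, 4930593A02Rik turned to -1.35 in KO over all peaks, and the sum of Gm27177 to 1.17 in WT and 0.19 in KO with no filter. On leaving out libraries Malat1 5797547 ran from -1.90 to 0.230 in WT, the sum of AI662270 from -0.0853 to 1.53 in WT and that of Xist from -2.10 to 0.19 in KO. No paired analysis was possible because the labels number every library separately and do not say which libraries share a liver. Depth limits all of this: 18 members could be tested between genotypes.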

Other observations

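With no low-count filter, edgeR's quasi-likelihood test called 16 of 918 members lower and 2 higher in KO, where 2704 of all 106381 peaks were lower and 35 higher, so the share of lower peaks was no larger among the members. Of the 16, 13 held no KO Ago read, 9 held reads in an IgG library, and 9 had a weak match to miR-451a or miR-144-3p. Over all members 10.3% had a match to miR-451a and 22.0% to miR-144-3p, where 11.9% and 26.3% of all peaks did. The same shares among all peaks called lower were not counted, so the 9 are a description. The peak of 9630028H03Rik, chr2:135420178-135420195, held 0 reads in each KO Ago library, against 7, 8 and 4 in WT Ago (log2 change -5.61, adjusted p = 0.0054). No IgG library held a read there, and its code for miR-451a was 5. The peak of Nkx2-2os held 1, 0 and 0 reads in KO Ago, against 11, 7 and 6 in WT Ago (-4.04, adjusted p = 0.0075), with 3, 0 and 1 reads in WT IgG. In 4930526L06Rik the peak held 0 reads in each KO Ago library, against 6, 5 and 6 in WT Ago, and 0 in each KO IgG library, against 3, 4 and 1 in WT IgG. The peak of RP24-543J12.1 has the same pattern (adjusted p = 6.1e-06). Of the 2 higher peaks, C330006A16Rik chr2:26138156-26138186 changed by 5.12 (adjusted p = 0.022). Fitted changes against a group at 0 depend on the prior count and are no bounds.

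For the 3 genes with the most Ago reads, the deepest peak that the rule left out by its code is given here, chosen after its values were seen. In Gm27177 the peak at chr14:69680782-69680808, a 6-mer match to miR-144-3p, held 3, 2 and 2 reads in KO Ago, against 27, 48 and 10 in WT Ago. The Cyrano peak at chr2:119603477-119603514, a 7-mer-m8 match to miR-144-3p, held 3, 5 and 0 reads in KO Ago, against 10, 17 and 6 in WT Ago. The Malat1 peak at chr19:5797626-5797652, a 6-mer match, held 11, 23 and 12 reads in KO Ago, against 5, 36 and 6 in WT Ago.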
